A study of Mus musculus with 4 samples.

Results

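Transcription factors of spermatogonia were followed in the ribosome profile of leptotene/zygotene spermatocytes that lack *Eef1g*. The group holds 7 genes, taken by symbol, *Dmrt1*, *Sohlh1*, *Sohlh2*, *Sall4*, *Zbtb16*, *Foxo1* and *Taf4b*, and all 7 were present among the 11598 genes of the deposited table. Ribo-seq counts ribosome-protected fragments (RPFs), stretches of mRNA protected from nuclease by the ribosome that sits on them. The 4 libraries came from spermatocytes sorted by FACS after Hoechst staining from testes of mice at 12 days postpartum (dpp), 2 of each genotype, control and *Eef1g*-cKO. The labels give the control genotype as wild type, the paper calls these mice littermate controls, and their alleles are not given in more detail. In *Eef1g*-cKO mice *Stra8*-GFPCre removes exons of *Eef1g* in male germ cells, and recombination by this Cre begins in type A spermatogonia, cells that express several of these factors.

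Spermatogonia are the mitotic germ cells of the testis. A small undifferentiated pool renews itself and gives rise to differentiating spermatogonia, which divide, enter meiosis and become leptotene and then zygotene spermatocytes. Transcription factors set these steps. ZBTB16 (PLZF), SALL4 and FOXO1 are known for keeping the undifferentiated pool, SOHLH1 and SOHLH2 for starting differentiation, DMRT1 for holding back meiotic entry while spermatogonia divide, and TAF4B for a germ-cell form of the general transcription factor TFIID. In a sort of early meiotic cells, RPFs on these genes can come from spermatocytes that still translate them or from spermatogonia and preleptotene cells carried along in the gate.

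*Eef1g* itself had 107 and 58 reads in control against 0 and 4 in the *Eef1g*-cKO libraries. The control libraries held 2479504 and 1384282 reads on genes and the *Eef1g*-cKO libraries 223906 and 407979, so counting error was larger in the latter. RPF abundance is given as the authors' FPKM, the reads on a gene scaled by its length and by the total reads on genes. It was compared with limma on log2(FPKM + 1) in the 10475 genes whose mean over the libraries reached 1 FPKM, a filter that all 7 genes passed. A gene was called at a p under 0.05 and a log2 fold change beyond 1 in either direction, by unadjusted p and by Benjamini-Hochberg adjusted p over all genes tested. *Eef1g* itself, at a log2 fold change of −3.39 (standard error 0.91), passed the unadjusted p of limma (0.0105) but not the adjusted p (0.0731).

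In *Eef1g*-cKO spermatocytes 5 of the 7 genes had decreased RPF abundance by unadjusted p, *Dmrt1*, *Sohlh1*, *Zbtb16*, *Sall4* and *Foxo1*, where 16.3% of all genes tested were called decreased. By adjusted p 3 of them were called, *Dmrt1*, *Sohlh1* and *Zbtb16*, against 4.97% of all genes tested. *Sohlh2* and *Taf4b* were not called by either p, and none of the 7 was called increased, against 7.32% of all genes by unadjusted p and 2.87% by adjusted p. Both *Eef1g*-cKO libraries lay below both control libraries for 6 of the 7 genes, where 37.7% of all genes tested did so, and above them for *Taf4b*, where 24.6% did. In these bulk libraries fewer spermatogonia among the sorted cells and less RNA or fewer ribosomes on it per cell cannot be told apart. By immunostaining, the paper counted a similar share of leptotene/zygotene spermatocytes in the sorted cells of both genotypes. Which cells made up the rest is not given. The median log2 fold change of the 7 genes was −1.76, beside −0.23 for all genes tested. On the reads recovered from the deposited normalized counts, edgeR's quasi-likelihood test called the same 5 genes decreased by adjusted p, where 11.2% of 8056 genes were decreased and 8.75% increased. DESeq2 also called these 5 by adjusted p, where 5.34% of 8450 genes were decreased and 5.94% increased, and neither tool called any of the 7 increased.

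**Figure D1:**
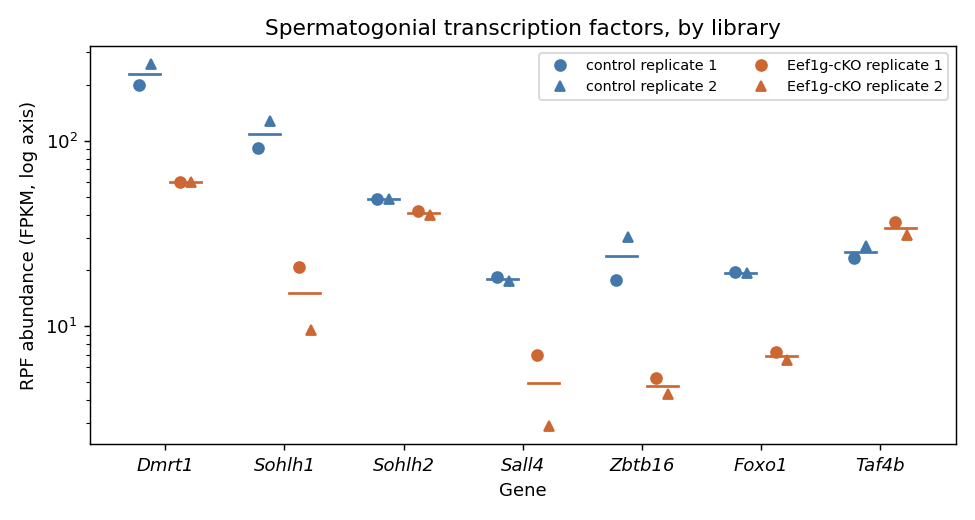
RPF abundance of each of the 7 genes in FPKM, on a log axis, in every library; circles are replicate 1, triangles replicate 2, and short lines the mean of the 2 libraries of a genotype. The *Eef1g*-cKO libraries lie below the control libraries for every gene but *Taf4b*, with a narrow gap for *Sohlh2*.

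The basic helix-loop-helix pair SOHLH1 and SOHLH2 gave unlike values. These proteins are known to form heterodimers that bind E-box DNA and drive spermatogonial differentiation. *Sohlh1* (chromosome 2 of GRCm38.p6, 25842995 to 25847248) had 290 and 227 reads in control against 6 and 5 in the *Eef1g*-cKO libraries. In FPKM it stood at 90.9 and 127 in control against 20.8 and 9.52 in *Eef1g*-cKO, or 109 ± 25.8 and 15.2 ± 7.99 (SD, n = 2 each). Both *Eef1g*-cKO libraries were far below both control libraries, and the change was the largest of the 7, −2.84 on the log2 scale (standard error 0.40, limma adjusted p = 0.0297). As a ratio of pooled reads per 1000000 reads on genes (RPM), control was 7.69-fold higher, with a 95% interval for counting error of 4.26 to 15.5. Intervals of this kind cover the counting of pooled reads only and leave out the spread between libraries. A fragment copied by PCR is also counted more than once.

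*Sohlh2* (chromosome 3, 55182044 to 55209957) had 284 and 158 reads in control against 22 and 38 in *Eef1g*-cKO. Its abundance was 48.8 and 48.6 FPKM in control against 41.8 and 39.7 FPKM in *Eef1g*-cKO. The 4 libraries thus lay close together, with a log2 fold change of −0.25 and a 95% interval from −0.78 to 0.28 (limma adjusted p = 0.461). At the authors' scaling this interval leaves out a fall by more than 0.78 or a rise by more than 0.28 on the log2 scale, but not smaller changes. With each library centred on its median the estimate was −0.04, so these limits depend on the scaling.

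The ratio of *Sohlh1* to *Sohlh2* reads within a library does not depend on how libraries are scaled. It was 1.02 and 1.44 in control against 0.273 and 0.132 in *Eef1g*-cKO, so the genotypes did not overlap. Over pooled reads the ratio was 6.37-fold higher in control, with an exact 95% interval of 3.27 to 13.6 for counting error. An exact two-sided permutation test of the 4 libraries gave p = 0.333, the smallest p that 2 libraries against 2 allow.

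Promoter sequences were available from the RefSeq table of GRCm38.p6 for 3 of the 7 genes, *Sohlh1*, *Sohlh2* and *Foxo1*. The 250 bases before the start of the SOHLH pair are shown because these genes encode partners that bind E-boxes and differ in response. The first runs along the minus strand of chr2:25847249-25847498 and the second along the plus strand of chr3:55181794-55182043, and capitals mark the E-box CACGTG.
*Sohlh1*: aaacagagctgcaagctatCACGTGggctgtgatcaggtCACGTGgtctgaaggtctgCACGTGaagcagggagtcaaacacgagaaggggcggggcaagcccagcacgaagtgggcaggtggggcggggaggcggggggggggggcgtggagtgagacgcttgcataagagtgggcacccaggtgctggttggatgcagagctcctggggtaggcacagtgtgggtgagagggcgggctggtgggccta
*Sohlh2*: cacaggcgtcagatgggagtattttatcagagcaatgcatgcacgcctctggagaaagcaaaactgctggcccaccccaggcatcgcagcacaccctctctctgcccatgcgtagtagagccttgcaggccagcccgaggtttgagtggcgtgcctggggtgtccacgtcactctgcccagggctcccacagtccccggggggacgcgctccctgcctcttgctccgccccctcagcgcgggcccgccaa
The *Sohlh1* window held CACGTG 3 times, beginning 231, 211 and 192 bases before the start, and the *Sohlh2* and *Foxo1* windows held it 0 times. Of 32851 promoter windows of this length, 6.02% held CACGTG at least once and 0.0609% held it 3 times or more. The wider pattern CANNTG, which includes CACGTG and reads the same on both strands, occurred 5 times in *Sohlh1* and 1 time each in *Sohlh2* and *Foxo1*, and 66.2% of windows held it. The core ACANTGT of sites bound by DMRT1, searched on both strands, occurred 1 time in *Sohlh1* and in 6.47% of windows, and the forkhead core GTAAACA occurred in none of the 3 and in 3.17% of windows. CACGTG was picked out after the sequence had been seen, and these matches describe letters, not bound sites.

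*Dmrt1* (chromosome 19, 25505618 to 25604328), which encodes a DM-domain factor, had the highest FPKM of the 7 genes in every library. It had 1109 and 806 reads in control against 30 and 55 in *Eef1g*-cKO. Its abundance was 199 and 259 FPKM in control against 59.5 and 59.9 FPKM in the *Eef1g*-cKO libraries, or 229 ± 42.4 and 59.7 ± 0.259 (SD, n = 2 each). The 2 *Eef1g*-cKO libraries were nearly equal and far below control, and *Dmrt1* fell by 1.91 on the log2 scale (standard error 0.22, limma adjusted p = 0.0233). Pooled RPM were 3.68-fold higher in control, with a counting interval of 2.96 to 4.63. Ranked by mean FPKM among all genes of the table, *Dmrt1* stood at percentile 97.6 in control against 88.5 in *Eef1g*-cKO. Over the 4 libraries its centred log2 profile was nearest, among 3906 other genes with at least 10 reads in each library, to *Mdh2*, *Eef1d* and *Pes1*, at Euclidean distances of 0.12, 0.14 and 0.14. *Mdh2* encodes mitochondrial malate dehydrogenase, *Eef1d* a subunit of the elongation factor complex that also holds eEF1G, and *Pes1* a ribosome biogenesis factor.

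Among the factors of the undifferentiated pool, *Zbtb16* (chromosome 9, 48651797 to 48836225), a BTB zinc finger repressor, had 225 and 214 reads in control against 6 and 9 in *Eef1g*-cKO. In FPKM these were 17.7 and 30.2 in control against 5.24 and 4.31 in *Eef1g*-cKO, or 24.0 ± 8.83 and 4.78 ± 0.655 (SD, n = 2 each). The control libraries differed from each other more than those of *Sall4* or *Foxo1* did, yet both lay above both *Eef1g*-cKO libraries. *Zbtb16* fell by 2.07 on the log2 scale (standard error 0.39, limma adjusted p = 0.0403), and pooled RPM were 4.79-fold higher in control (counting interval 2.87 to 8.63).

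*Sall4* (chromosome 2, 168748332 to 168767201), a zinc finger factor that works with the NuRD complex, had 231 and 123 reads in control against 8 and 6 in *Eef1g*-cKO. Its 18.4 and 17.5 FPKM in control compare with 7.04 and 2.90 FPKM in *Eef1g*-cKO. The 2 control libraries agreed closely and the 2 *Eef1g*-cKO libraries, which rest on few reads, did not. The log2 fold change of −1.76 passed the unadjusted p (0.00900) but not the adjusted p of limma (0.0683, standard error 0.46), and edgeR's quasi-likelihood test gave an adjusted p of 0.00323. Control was 4.14-fold higher in pooled RPM, with a counting interval of 2.43 to 7.64.

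*Foxo1* (chromosome 3, 52268337 to 52350109), the forkhead factor that PI3K and AKT signalling keeps out of the nucleus, had 270 and 148 reads in control against 9 and 15 in *Eef1g*-cKO. It stood at 19.6 and 19.3 FPKM in control against 7.24 and 6.62 FPKM in *Eef1g*-cKO. Replicates of each genotype lay close together and the genotypes well apart, a difference of −1.37 on the log2 scale (standard error 0.31). It passed the unadjusted p of limma (0.00521) and missed the adjusted threshold (adjusted p = 0.0553), which it passed in edgeR's quasi-likelihood test (adjusted p = 0.00517). The counting interval for the 2.85-fold higher pooled level in control ran from 1.89 to 4.50. Exons of *Sall4* and of *Foxo1* overlap a gene on the opposite strand, *Gm14261* and *Gm20402*, and whether reads were counted by strand is not given in the sources used here.

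*Taf4b*, on chromosome 18, encodes the gonad-enriched relative of the TFIID subunit TAF4. It had 298 and 192 reads in control against 42 and 65 in *Eef1g*-cKO. Its abundance of 23.3 and 26.9 FPKM in control compares with 36.4 and 30.9 FPKM in *Eef1g*-cKO, so that both *Eef1g*-cKO libraries were the higher ones. The log2 fold change of 0.41 had a 95% interval from −0.21 to 1.03 (limma adjusted p = 0.318). Pooled RPM were 1.34-fold higher in *Eef1g*-cKO, with a counting interval of 1.07 to 1.65 that leaves out the spread between libraries.

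**Figure D2:**
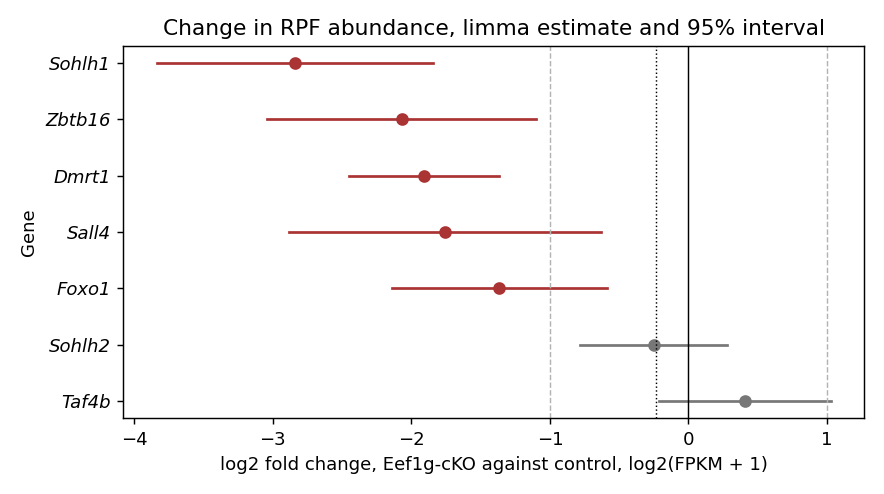
Log2 fold change of each of the 7 genes in *Eef1g*-cKO against control on the log2(FPKM + 1) scale (points) with limma's 95% interval (lines), in red for the 5 genes called by unadjusted p and grey for the other 2. Dashed lines mark the fold threshold of 1 in each direction and the dotted line the median of all genes tested, −0.23; the intervals of *Sohlh2* and *Taf4b* include 0.

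With 1 control library left out, the remaining control library was assumed to vary like the *Eef1g*-cKO pair, and fewer genes passed over the whole table. Without control replicate 1, *Dmrt1*, *Sohlh1* and *Zbtb16* were called by unadjusted p (3 genes), and without control replicate 2 only *Dmrt1* was (1 gene), at log2 fold changes of −2.60 for *Sohlh1*, −1.70 for *Zbtb16*, −1.79 for *Sall4* and −1.38 for *Foxo1*. Of the 10475 genes tested, 1013 and 795 were then decreased by unadjusted p, against 1705 with all 4 libraries, and 0 genes, members included, passed the adjusted p of limma in either fit. With 1 *Eef1g*-cKO library left out instead, *Sohlh1* and *Sall4* moved most, to −3.37 and −2.28 without replicate 1 and to −2.32 and −1.24 without replicate 2. Centring each library on its median shifted every log2 fold change up by 0.21, to −2.63 for *Sohlh1*, −1.86 for *Zbtb16*, −1.69 for *Dmrt1*, −1.54 for *Sall4*, −1.15 for *Foxo1*, −0.04 for *Sohlh2* and 0.62 for *Taf4b*. The same 5 genes were then called by unadjusted p, where 1346 of the 10475 genes tested were decreased.

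The 7 genes together took 1092 and 1349 RPM in control against 549 and 473 in the *Eef1g*-cKO libraries. The 5 decreased genes accounted for this difference, with 857 and 1097 RPM in control against 264 and 221 in *Eef1g*-cKO. *Sohlh2* and *Taf4b* together had 235 and 253 RPM in control against 286 and 252 in *Eef1g*-cKO, so their sums overlapped between genotypes. As a share of the reads on the 7 genes, *Taf4b* took 11.0% and 10.3% in control against 34.1% and 33.7% in *Eef1g*-cKO. *Dmrt1* took 41.0% and 43.1% in control against 24.4% and 28.5% in *Eef1g*-cKO, and the ratio of *Dmrt1* to *Taf4b* reads went from 3.72 and 4.20 to 0.714 and 0.846.

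**Figure D3:**
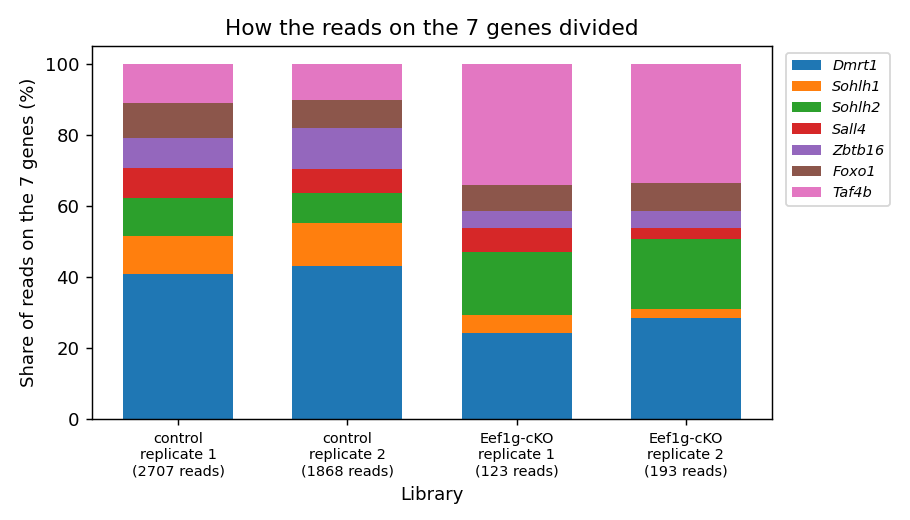
Share of the reads on the 7 genes that fell on each gene, in percent, as a stacked bar per library with the number of reads under it. *Taf4b* and *Sohlh2* take a larger part in both *Eef1g*-cKO libraries than in either control library, where 123 and 193 reads stand behind the bars.

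The levels of different genes can be compared only per length. The deposited gene length includes untranslated exons, and the longest coding sequence in GENCODE release M21 made up from 35.2% (*Foxo1*) to 83.2% (*Sohlh1*) of it, so levels were also computed as RPM per kilobase of coding sequence, as if every read lay on coding sequence. On this scale the order in control was *Dmrt1* (459 ± 85.1, SD, n = 2), *Sohlh1* (131 ± 31.0), *Sohlh2* (81.6 ± 0.202), *Zbtb16* (60.8 ± 22.4), *Foxo1* (55.2 ± 0.715), *Taf4b* (50.5 ± 5.10) and *Sall4* (28.4 ± 0.952). The range of *Zbtb16* over its 2 control libraries included the ranges of *Foxo1* and *Taf4b*, so *Zbtb16* did not differ from either beyond its spread. The control ranges of *Foxo1* (54.7 to 55.7) and *Taf4b* (46.9 to 54.1) did not overlap each other. In *Eef1g*-cKO the order was *Dmrt1* (119.8 ± 0.521), *Sohlh2* (68.3 ± 2.58), *Taf4b* (67.6 ± 7.79), *Foxo1* (19.7 ± 1.24), *Sohlh1* (18.2 ± 9.60), *Zbtb16* (12.1 ± 1.66) and *Sall4* (7.88 ± 4.64). *Sohlh2* and *Taf4b* overlapped in range there, as did *Foxo1* and *Sohlh1*, *Sohlh1* and *Zbtb16*, and *Zbtb16* and *Sall4*. *Sohlh1* thus stood above *Sohlh2* in both control libraries and below it in both *Eef1g*-cKO libraries.

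Other transcription regulators of spermatogonia were taken from a list of 22 genes, of which 17 were in the table and 14 tested. By unadjusted p 10 of the 14 were called decreased and 0 increased, where 16.3% and 7.32% of all genes tested were. By adjusted p 4 were decreased and 0 increased, against 4.97% and 2.87% of all genes tested. edgeR's quasi-likelihood test, whose filter kept 7 of them, called 4 decreased and 1 increased by adjusted p. It called 11.2% of all its genes decreased and 8.75% increased. The median log2 fold change in limma was −1.75, close to that of the 7 genes, but for 12 of the 17 genes neither *Eef1g*-cKO library exceeded 3 reads. The list summed to 1142 and 1530 RPM in control against 1112 and 1360 in *Eef1g*-cKO, so the sums overlapped. Its abundant *Tsc22d3* and *Rhox13* were higher in both *Eef1g*-cKO libraries, at log2 fold changes of 0.91 and 0.90 that missed the fold threshold. *Sox3*, a gene of undifferentiated and early differentiating spermatogonia, had 357 and 220 reads in control against 8 and 8 in *Eef1g*-cKO, a log2 fold change of −2.42 (limma adjusted p = 0.0296). *Egr4*, a zinc finger factor, had 94 and 56 reads in control against 1 and 0 in *Eef1g*-cKO, a pooled level 24.5-fold higher in control with a counting interval from 4.34 to 975. The homeobox gene *Rhox10* had 36 and 13 reads in control against 0 in both *Eef1g*-cKO libraries, which at 3 reads for each *Eef1g*-cKO library makes control at least 1.15-fold higher. *Dmrtb1*, the DM-domain gene that acts at the passage from mitosis to meiosis, had 859 and 804 reads in control against 36 and 75 in *Eef1g*-cKO and fell by 1.37 on the log2 scale (limma adjusted p = 0.0484). *Sox3*, *Dmrtb1*, *Tsc22d3* and *Rhox13*, and below *Kit*, *Stra8*, single markers and the genes called by unadjusted p alone, lie outside the limit of 2 genes per direction and were named after their values were seen.

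Paralogs of the 7 genes did not all go the same way. Of 14 listed paralogs, 11 were in the table and 10 tested, with 2 decreased and 1 increased by adjusted p and a median log2 fold change of −0.68. Of all genes tested, 4.97% were decreased and 2.87% increased by adjusted p. *Foxo3*, a forkhead paralog of *Foxo1*, had 172 and 85 reads in control against 3 and 7 in *Eef1g*-cKO, a log2 fold change of −1.92 (limma adjusted p = 0.0366). The other decreased paralog was *Dmrtb1*, and the increased one was *Dmrtc2*, a DM-domain gene known for its role in meiotic prophase, with 88 and 93 reads in control against 45 and 55 in *Eef1g*-cKO (log2 fold change 1.72, limma adjusted p = 0.0497). *Dmrt1* and *Dmrtc2* thus changed in opposite directions. *Taf4a*, the widely expressed counterpart of *Taf4b*, had 103 and 44 reads in control against 5 and 9 in *Eef1g*-cKO and was not called (log2 fold change −0.62, limma adjusted p = 0.333).

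Partners of these factors showed few calls by adjusted p in limma. Of all genes tested, 7.32% were increased by unadjusted p and 2.87% by adjusted p, and 16.3% and 4.97% were decreased. Of the TFIID subunits other than TAF4B, 13 of 14 were in the table and tested, with a median log2 fold change of 0.14, 3 increased by unadjusted p (*Taf9*, *Taf10* and *Taf12*) and 1 by adjusted p. The latter was *Taf9*, a histone-fold subunit, which rose by 1.44 on the log2 scale (limma adjusted p = 0.0379). Of 18 NuRD and corepressor genes that work with SALL4 or ZBTB16, all tested, the median was −0.38, and 1 gene was called by adjusted p, *Rbbp7*, a histone-binding subunit of NuRD, which rose by 1.40 (limma adjusted p = 0.0319). Of 10 PI3K and AKT genes upstream of FOXO1, 9 were tested, with a median of 0.28 and 0 called by adjusted p in limma. By unadjusted p *Pik3r2*, a regulatory subunit of PI3K, was decreased (−1.33) and 1 gene increased. edgeR's quasi-likelihood test called 2 increased by adjusted p, against 8.75% of all its genes.

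Genes known as targets of these factors formed a list of 8, of which 7 were in the table and tested. By adjusted p 5 were decreased and 0 increased, where 4.97% and 2.87% of all genes tested were. By unadjusted p 6 were decreased and 1 increased, against 16.3% and 7.32% of all genes tested. *Kit*, the stem cell factor receptor that SOHLH1 and SOHLH2 are known to activate and ZBTB16 to repress, had 1615 and 1146 reads in control against 17 and 47 in *Eef1g*-cKO. It fell by 2.90 on the log2 scale (limma adjusted p = 0.0212). *Stra8*, the meiotic entry gene that DMRT1 is known to repress in spermatogonia, had 939 and 508 reads in control against 41 and 57 in *Eef1g*-cKO and fell by 1.21 (limma adjusted p = 0.0379). The T-box gene *Tbx1* had 87 and 86 reads in control against 1 and 1 in *Eef1g*-cKO, a pooled level 14.1-fold higher in control with a counting interval from 3.86 to 118. *Egr4* and *Sohlh1*, described above, were the other 2 genes decreased by adjusted p. By unadjusted p alone, the GDNF receptor *Ret*, with 77 and 67 reads in control against 0 and 3 in *Eef1g*-cKO, was decreased, with a pooled level 7.85-fold higher in control and a counting interval from 2.63 to 38.5. The mTORC1 inhibitor *Ddit4*, with 20 and 29 reads in control against 8 and 15, was increased by unadjusted p alone (1.35). *Sohlh1* is thus counted both as a member and as a target, and *Kit* and *Ret* also stand among the spermatogonial markers.

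Markers of the cells that the sort could hold were read beside these results. Of all genes tested, 4.97% were decreased and 2.87% increased by adjusted p. All 16 leptotene and zygotene markers were in the table, none decreased and 5 increased by adjusted p (*Sycp3*, *Hormad1*, *Dmc1*, *Smc1b* and *Gm1564*, the older symbol of *Meioc*), and their sum was 6020 and 5024 RPM in control against 11438 and 11289.8 in *Eef1g*-cKO. Of 15 spermatogonial markers that are not transcription factors, 14 were in the table and 12 tested, with 6 decreased and 1 increased by adjusted p. The sum of the 14 was 2968 and 3443 RPM in control against 1099 and 1113 in *Eef1g*-cKO. *Cdh1*, with 13 and 4 reads in control, and *Nanos2*, with 9 and 1, were not tested and had 0 reads in both *Eef1g*-cKO libraries. With so few control reads, 0 reads at the lower *Eef1g*-cKO depth do not show a decrease. The increased marker was *Epcam* and the most abundant one *Uchl1*, with 2874 and 1807 reads in control against 36 and 56 in *Eef1g*-cKO. *Uchl1* made up 38.4% of the sum in control, and for 6 of the 14 neither *Eef1g*-cKO library exceeded 3 reads. *Gfra1*, *Itga6* and *Nanos3* overlapped between genotypes. The 5 decreased transcription factors therefore moved with the summed level of the spermatogonial markers and with 6 of the 12 tested, not with all of them. *Sohlh2* and *Taf4b* were not called, and the part that the makeup of the sort has in these values was not tested.

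Of 13 Sertoli cell markers, 11 were in the table, summing to 1675 and 659.5 RPM in control against 844 and 706 in *Eef1g*-cKO, with 0 called by adjusted p in limma and 2 decreased by unadjusted p, *Gata4* and *Cldn11*. Of all genes tested, 16.3% were decreased and 7.32% increased by unadjusted p. Of the 11 Sertoli markers, 8 lay lower in both *Eef1g*-cKO libraries than in both control libraries and 0 higher. Of all genes tested, 37.7% lay lower in this way and 24.6% higher. The median log2 fold change of the 11 was −1.37. Of the 6 that edgeR's quasi-likelihood test could take, 3 were decreased by adjusted p, against 11.2% of all its genes. *Ctsl*, which overlapped between genotypes, made up 39.3% of the sum in control, and 7 of the 11 had at most 3 reads in each *Eef1g*-cKO library. *Clu* had more reads than *Ctsl* in control replicate 1 (2052 against 1337) and fewer in control replicate 2 (241 against 525). The control libraries differed widely for *Clu*, at 458 and 96.3 FPKM against 91.4 and 65.1 in *Eef1g*-cKO. They also did for *Aard*, at 111 and 24.7 FPKM against 16.6 and 23.6 in *Eef1g*-cKO. Sertoli cells also express *Dmrt1*, and their part in its decrease was not tested. Of 9 pachytene markers 5 were in the table, with sums of 806 and 617 RPM in control against 1746 and 1799 in *Eef1g*-cKO. Most of these reads lay on *Hist1h1t* (707 and 306 in control, 240 and 406 in *Eef1g*-cKO) and *Hspa2* (1082 and 475, 135 and 303). *Tbpl1* overlapped between genotypes, and *Ldhc* was higher in both *Eef1g*-cKO libraries but not called. The paper detected no pachytene spermatocytes in *Eef1g*-cKO testes, so the sums are no count of such cells. By unadjusted p 1 of them was increased, *Hist1h1t* (log2 fold change 2.04, limma adjusted p = 0.0236), and 1 decreased, *Piwil1* (−1.46, limma adjusted p = 0.161). Peritubular markers (3 of 5 in the table) summed to 125 and 91.7 RPM in control against 49.1 and 56.4 in *Eef1g*-cKO. Spermatid (3 of 7), Leydig (3 of 7) and macrophage (1 of 7) markers summed to at most 28.9 RPM in any library, and none of 5 blood markers was in the table. *Stra8*, described above, was the preleptotene marker in the table.

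**Figure D4:**
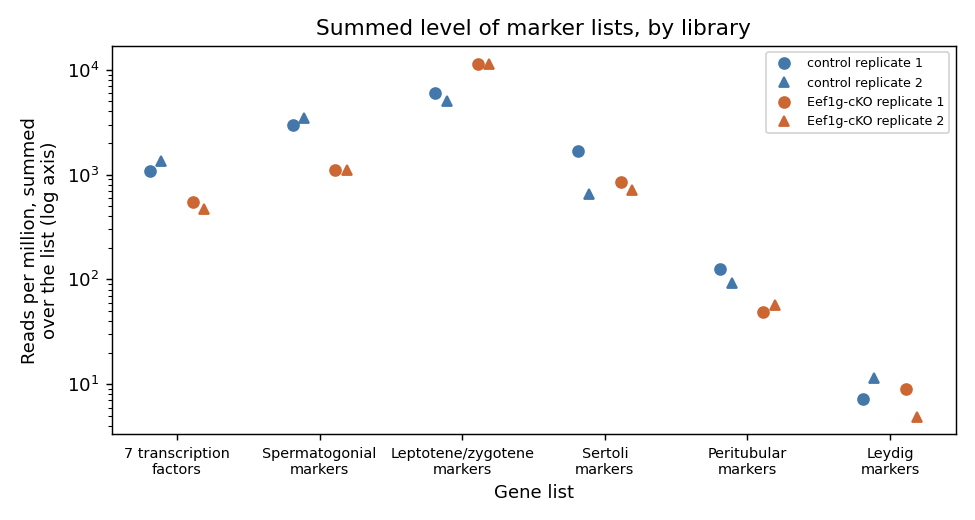
RPM summed over the 7 transcription factors and over marker lists, on a log axis, with 1 point per library (circles replicate 1, triangles replicate 2). The sums of the 7 genes and of the spermatogonial markers are lower in both *Eef1g*-cKO libraries than in both control libraries. The leptotene/zygotene sums are higher, and the Sertoli sums overlap. Of the 11 Sertoli markers, 8 were lower in both *Eef1g*-cKO libraries, as were 37.7% of all genes tested.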

How the data were processed

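Ribo-seq was measured in 4 libraries of sorted leptotene/zygotene spermatocytes, 2 per genotype, which the series describes as independent biological replicates. The authors deposited 1 table of 11598 genes, each with at least 10 reads over the libraries. The authors computed its FPKM from the reads on each gene, the gene length and the library total. Normalized counts were deposited as a signal, the reads scaled by 1 size factor per library, and were whole multiples of 1 step per library for 100% of values (within 0.001), which gave back the reads. The table also holds the authors' own fold changes, standard errors, test statistics and p-values, which were not used. The methods state that adapters were trimmed, low-quality reads removed and the rest aligned to the genome, with RiboMiner for quality measures. The submitters' processing notes name cutadapt, Bowtie and STAR and the builds mm10 and hg38, with no role. The read counter is not given in the sources used here. Coordinates are RefSeq's for GRCm38.p6 and serve for orientation.

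limma 3.58.1 (R 4.3.3, trended prior variance, pseudocount 1 FPKM) was the main test, since FPKM are not counts. edgeR 4.0.16 (TMM, filterByExpr) and DESeq2 1.42.0 were run on the recovered reads. The main limma fit, edgeR with its filter and DESeq2 were first run on simulated libraries. Changes were placed there only on genes with higher mean reads, and the other settings were not simulated. Intervals for counting error are exact (Clopper-Pearson, or conditional for a ratio of ratios) at 95%, and 3 reads are the limit that a count of 0 allows (scipy 1.17.1, Python 3.11.15). The replicate differences of the 2 genotypes were not correlated (Pearson's r −0.01 over 10475 genes). This cannot show whether libraries of the same replicate number were prepared together, which is not given in the sources used here.

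The 7 genes and all gene lists were chosen with earlier results of these data known. Named genes are the 7, *Eef1g*, the genes of each pathway list that passed the adjusted p and the fold threshold (at most 2 per direction, with exceptions named), and the 3 genes nearest to the member with the most reads. Other pseudocounts, filters, scalings, prior variances and tools, a replicate block and the omission of each library were tried. A few single results within the lists are not reported here.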

Additional observations from a re-analysis of the deposited data

How the results depend on the processing

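The 5 genes called decreased by unadjusted p stayed 5 in all 10 alternatives that kept the 4 libraries, where from 958 to 1943 of the genes tested were decreased. Fewer of the 5 passed when a control library was left out, and the cause was not tested. The count by adjusted p was 3, and became 5 with edgeR, with edgeR without a filter, with DESeq2 and with a pseudocount of 5 FPKM, 1 with a pseudocount of 0.1 FPKM and 0 with an untrended prior variance, and it ranged from 0 to 5 when each library was left out (0 without either control library, where 0 of all 10475 genes passed in either direction, and 5 and 4 without *Eef1g*-cKO replicate 1 and 2, where 1086 and 1432 genes were decreased). With the replicate number as a block it was 4, *Sall4* joining at a limma adjusted p of 0.0461. Whether these numbers pair the libraries is not given. The median log2 fold change of the 7 genes lay between −1.23 and −1.92 under all 14 alternatives, no estimate changed sign, and 0 genes were called increased by adjusted or unadjusted p under any of them. *Sohlh2* ranged from −0.29 to −0.04 and *Taf4b* from 0.29 to 0.62. Over all genes, 31.0% of the unadjusted calls were increases, and 46.2% with median centring, 38.9% with a filter at 5 FPKM, 27.9% with no filter, 41.5% with edgeR, 38.0% with edgeR without its filter and 44.4% with DESeq2. Decreased genes by adjusted p numbered 521, and 47 with a pseudocount of 0.1 FPKM, 904 with edgeR, 822 with the replicate block and 0 with an untrended prior variance. *Sohlh1*, *Sall4*, *Zbtb16* and *Foxo1* had from 5 to 15 reads in an *Eef1g*-cKO library, which limits their precision.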
